A study of Mus musculus with 8 samples.

Results

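The CDK inhibitor genes encode the proteins that bind and block cyclin-dependent kinases (CDKs), the enzymes that carry a cell from one phase of its division cycle to the next. The 7 genes of the 2 classical families were taken by name from the gene tables of 8 libraries. They are Cdkn1a, Cdkn1b and Cdkn1c of the CIP/KIP family and Cdkn2a, Cdkn2b, Cdkn2c and Cdkn2d of the INK4 family, and they are 7 of 22050 genes with an mRNA model. The libraries came from haematopoietic stem cells (HSCs) of bone marrow of C57BL/6 mice, an inbred strain with no transgene or treatment named. The cells were sorted as CD150+ CD48- EPCR+ Lineage-, with 100 cells for a library. Pups at postnatal day 5 (P5) gave 4 libraries, and mice 4 weeks old gave the other 4. Whether each library had its own animals is not stated in the labels, so p-values measure the spread between these libraries, which may be technical at least in part.

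CIP/KIP proteins bind complexes of a cyclin with its CDK, among them those of CDK2, whereas INK4 proteins bind CDK4 and CDK6 and keep them from D-type cyclins. Both actions hold back the phosphorylation of the retinoblastoma protein and with it the entry into S phase. In adult HSCs, p57 (the product of Cdkn1c) and p27 (Cdkn1b) are known for maintaining quiescence, p21 (Cdkn1a) is a target of p53, and p18 (Cdkn2c) is known for limiting self-renewal. The locus of Cdkn2a encodes p16 and, in another reading frame, p19Arf, and is kept silent in young HSCs by Polycomb proteins.

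Positions are on GRCm38.p6 from RefSeq. Cdkn1a lies at chr17:29090979-29100722 on the plus strand and Cdkn1b at chr6:134920401-134925525 on the plus strand. Cdkn1c lies at chr7:143458339-143461059 on the minus strand. The INK4 genes are all on minus strands, Cdkn2a at chr4:89274473-89294619, Cdkn2b at chr4:89306289-89311032, Cdkn2c at chr4:109660876-109666756 and Cdkn2d at chr9:21288459-21291421.

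The promoters of the 3 genes that differed by age in exon reads are shown because those differences are the main result. RefSeq promoter sequences on GRCm38.p6 were matched for 6 of the 7 genes. Each line gives the 250 bases before an annotated start, 5′ to 3′ on the strand of the gene. Capitals mark the GC box GGGCGG, the CAAT box CCAAT and the TATA box written here as TATAA, each on either strand, and a p53 response element. The intervals are chr17:29090729-29090978 for the first start of Cdkn1a, chr17:29093519-29093768 for its second start, chr6:134920151-134920400 for Cdkn1b and chr4:109666757-109667006 (minus strand) for the first start of Cdkn2c.
Cdkn1a, first start: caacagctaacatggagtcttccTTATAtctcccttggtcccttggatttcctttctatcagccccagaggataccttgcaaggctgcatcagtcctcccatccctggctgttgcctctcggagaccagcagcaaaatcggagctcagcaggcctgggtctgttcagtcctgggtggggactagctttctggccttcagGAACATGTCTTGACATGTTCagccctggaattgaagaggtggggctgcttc
Cdkn1a, second start: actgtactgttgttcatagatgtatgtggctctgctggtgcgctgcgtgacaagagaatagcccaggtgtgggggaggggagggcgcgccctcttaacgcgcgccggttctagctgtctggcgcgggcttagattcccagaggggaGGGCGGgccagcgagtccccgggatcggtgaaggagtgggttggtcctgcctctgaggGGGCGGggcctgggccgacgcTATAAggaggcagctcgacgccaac
Cdkn1b: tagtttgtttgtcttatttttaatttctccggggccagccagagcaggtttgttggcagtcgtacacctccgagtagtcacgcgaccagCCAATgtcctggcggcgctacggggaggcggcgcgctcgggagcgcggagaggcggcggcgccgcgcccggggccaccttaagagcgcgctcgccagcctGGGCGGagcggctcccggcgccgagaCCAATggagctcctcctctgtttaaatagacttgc
Cdkn2c, first start: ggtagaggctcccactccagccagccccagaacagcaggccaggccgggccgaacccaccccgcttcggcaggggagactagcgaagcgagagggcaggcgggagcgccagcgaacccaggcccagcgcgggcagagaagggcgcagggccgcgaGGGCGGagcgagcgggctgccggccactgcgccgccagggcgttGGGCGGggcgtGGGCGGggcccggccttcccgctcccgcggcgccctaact

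The 20 bases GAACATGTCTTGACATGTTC in the first Cdkn1a promoter, at chr17:29090928-29090947, begin 51 bases before the start. They match a pair of adjoining p53 half-sites with the core C and G kept and at most 1 other letter off. Such a match was found in 0.0578% of 32851 RefSeq promoter windows of this length, searched on both strands. The second Cdkn1a start has GGGCGG at 104 and 46 bases and TATAA at 25 bases before it. The Cdkn1b promoter has GGGCGG at 61 bases and CCAAT at 161 and 35 bases before the start. The first Cdkn2c start has GGGCGG at 95, 51 and 40 bases before it, with neither CCAAT nor TATAA. A second annotated start of Cdkn2c, whose bases are not printed, has no match to any motif searched. Among all windows, 32.7% hold GGGCGG, 33.8% CCAAT and 22.8% TATAA. The FOXO motif TGTTTAC (3.17% of windows) and the E-box CACGTG (6.02%) were also searched, and neither was found in these 4 windows. The motifs do not overlap one another in them, and a match is a description of letters, not of binding.

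The libraries held 5775130 to 7470777 exon reads, and the sums of 12 HSC markers were 5074 to 5663 CPM (normalised exon reads, scaled to library size) at P5 and 4602 to 5193 at 4 weeks. Reads of Y-linked genes were at 2 and 0 in P5 replicates 1 and 3 and between 1532 and 2293 in the other 6 libraries. Sex and age are thus not balanced, and the P5 libraries did not all come from the same animals. Whether the 4-week libraries did is not known. Of the genes for the excluded lineages, Cd3e, Ms4a1 and Ly6g were at 0 in every library. The summed level of 6 endothelial markers was 601 to 643 CPM at P5 and 322 to 378 at 4 weeks. Of the 6, 3 were higher at P5 in the test below, against 7.99% of all genes tested, and none was at 0. Cdh5, a marker of that list chosen after its values were seen, was at 10.8 ± 6.17 against 0.0421 ± 0.0841 CPM (SD, n = 4). Pecam1, Kdr and Emcn of the same list were not called. The sums of 8 macrophage and monocyte markers were 179 to 450 CPM at P5, highest in replicate 2, and 167 to 193 at 4 weeks. Those of 10 erythroid markers were 1118 to 1528 and 755 to 981, and those of 8 megakaryocyte markers 362 to 485 and 486 to 620. The other lists summed to 27.2 to 46.3 and 27.9 to 36.7 for neutrophils, 34.1 to 51.7 and 20.9 to 26.1 for B cells, 5.98 to 12.3 and 9.48 to 18.6 for T and NK cells, 12.6 to 32.3 and 12.4 to 83.7 for stroma, and 0.141 to 0.808 and 0.831 to 1.42 for mast cells and basophils, whose Mcpt8, Fcer1a, Ms4a2 and Prss34 were at 0. The part of these other cells in the results below was not tested, and fewer cells of a type cannot be told apart from less RNA per cell in such bulk libraries.

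In total exon reads the HSCs had more Cdkn1a and less Cdkn1b and Cdkn2c at P5 than at 4 weeks, while Cdkn1c and Cdkn2d did not pass the test. Cdkn1a was 2.94-fold higher at P5, Cdkn1b 1.36-fold lower and Cdkn2c 5.73-fold lower. In unique exon reads Cdkn1a did not pass (edgeR's quasi-likelihood test, adjusted p = 0.0782). Cdkn1b lost its call in 5 of 18 alternative settings and Cdkn2c in 1 of 17, and Cdkn2c rested on 31 exon reads at P5. Of the 7 genes, 5 passed the filter on low counts, and of these 1 was higher and 2 were lower by edgeR's quasi-likelihood test at an adjusted p under 0.05. The corresponding shares of the 12235 tested genes were 7.99% and 8.55%, or 16.5% in either direction. The ages did not overlap for 3 of the 5 genes, against 21.2% of all genes tested. Cdkn2c passed the filter through the 4-week libraries, where it was high.

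**Figure D1:**
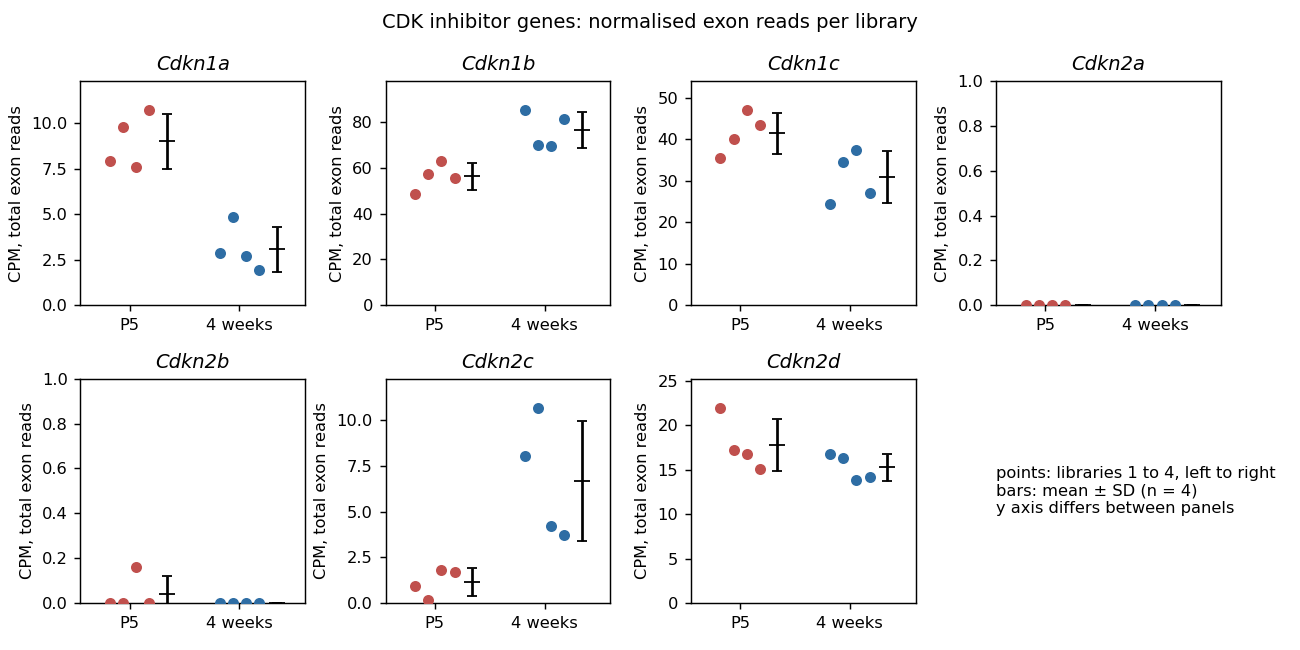
CPM of total exon reads (y axis, from 0, scale differs by panel) of the 7 genes in each P5 and 4-week library, with the mean ± SD of 4 libraries beside the points. Cdkn1a lies higher at P5 in all 4 libraries, Cdkn1b and Cdkn2c lie lower, Cdkn1c and Cdkn2d overlap, and Cdkn2a is at 0.

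Cdkn1a encodes p21, which inhibits cyclin-CDK2 complexes and is induced through p53 after DNA damage. Its level was 7.91, 9.79, 7.60 and 10.7 CPM in P5 replicates 1 to 4 and 2.84, 4.83, 2.69 and 1.94 CPM in the 4-week replicates 1 to 4. Every P5 library lay above every 4-week library. The means were 9.00 ± 1.50 and 3.08 ± 1.23 CPM (SD, n = 4), a log2 fold change of 1.56 with a standard error of 0.314 and an adjusted p = 0.00398 by edgeR's quasi-likelihood test. The reads behind it were few, 244 exon reads at P5 and 76 at 4 weeks. Beside Cdkn1a, Egfl7, the endothelial marker with the smallest p-value, was at 272 ± 26.5 against 90.8 ± 4.39 CPM (SD, n = 4), P5 against 4 weeks. The endothelial markers Emcn, at 41.8 ± 6.13 against 36.7 ± 3.38 CPM, and Kdr, at 5.08 ± 0.748 against 4.41 ± 2.09 CPM, were not called. The part of endothelial cells in the Cdkn1a difference was not tested.

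The reads of Cdkn1a were mostly not unique. The tables list Cdkn1a on 2 contigs of the assembly, with 311 exon reads on one and 9 on the other, and only 25.3% of its exon reads were uniquely placed. Genes listed on more than 1 contig had a median of 1.68% unique exon reads (523 genes with at least 100 exon reads), and genes listed once a median of 99.97%. Uniquely placed exon reads of Cdkn1a numbered 18, 22, 11 and 14 at P5 and 1, 10, 0 and 5 at 4 weeks. Cdkn1a passed the filter in unique exon reads through the P5 libraries, where it was high. In CPM of unique reads the ages still did not overlap, but P5 replicate 3, at 2.09, was only just above 4-week replicate 2, at 2.03. Given the way the gene passed the filter, this lack of overlap is a description only. The log2 fold change in unique exon reads was 1.89 with a standard error of 0.682, and it did not pass, with an adjusted p = 0.0782 by edgeR's quasi-likelihood test. Without 4-week replicate 2 it was 2.93 with an adjusted p = 0.0167, and limma-voom gave 2.56 with an adjusted p = 0.0288. Of all genes tested in unique exon reads, 7.65% were higher and 8.25% lower (15.9% in either direction), and 20.5% did not overlap. Every other member had 100% unique exon reads where it had any.

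Cdkn1b encodes p27, which binds cyclin-CDK2 complexes and is removed by ubiquitin ligases as cells enter S phase. Its level was 48.8, 57.5, 63.2 and 55.7 CPM at P5 and 85.2, 70.0, 69.7 and 81.3 CPM at 4 weeks. All 4-week libraries were above all P5 libraries, the closest being P5 replicate 3 and 4-week replicate 3. The means were 56.3 ± 5.93 and 76.5 ± 7.91 CPM (SD, n = 4), a log2 fold change of -0.44 with a standard error of 0.110 and an adjusted p = 0.0134 by edgeR's quasi-likelihood test. The call was lost without 4-week replicate 1 (adjusted p = 0.0520) or 4-week replicate 4 (adjusted p = 0.0515). With a covariate for Y-linked reads, present or not, the adjusted p was 0.0700, and among the 6 libraries with such reads it was 0.0521, with log2 fold changes of -0.44 in both.

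Cdkn1c encodes p57, the CIP/KIP member whose loss in adult HSCs is known to disturb their quiescence. It is imprinted and expressed mainly from the maternal chromosome. Its level was 35.4, 40.1, 47.0 and 43.6 CPM at P5 and 24.3, 34.6, 37.5 and 27.1 CPM at 4 weeks. The ages overlapped, since 4-week replicate 3 lay above P5 replicate 1. The means of Cdkn1c were 41.5 ± 4.95 and 30.9 ± 6.19 CPM (SD, n = 4), a log2 fold change of 0.43 with a standard error of 0.153 that missed the threshold at an adjusted p = 0.0740 by edgeR's quasi-likelihood test. Without 4-week replicate 3 the adjusted p was 0.0425, and DESeq2 on unique exon reads gave 0.0468.

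Cdkn2c encodes p18, an INK4 protein. Its level was 0.954, 0.155, 1.78 and 1.69 CPM at P5 and 8.06, 10.7, 4.21 and 3.74 CPM at 4 weeks. Each 4-week library was above each P5 library, and the 4-week libraries fell into a higher pair, replicates 1 and 2, and a lower pair, replicates 3 and 4. The P5 values rest on 31 exon reads in all, with 1 in replicate 2, against 165 at 4 weeks. The means were 1.14 ± 0.756 and 6.67 ± 3.30 CPM (SD, n = 4), a log2 fold change of -2.52 with a standard error of 0.545 and an adjusted p = 0.00627 by edgeR's quasi-likelihood test. The value was the same to 2 decimals in unique exon reads.

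Cdkn2d encodes p19, the INK4 protein of CDK4 and CDK6 that is distinct from p19Arf. Its level was 21.9, 17.3, 16.8 and 15.1 CPM at P5 and 16.7, 16.4, 13.8 and 14.1 CPM at 4 weeks. The ages overlapped, with P5 replicate 1 highest. The means of 17.8 ± 2.94 and 15.3 ± 1.51 CPM (SD, n = 4) differed by a log2 fold change of 0.22 with a standard error of 0.167, and this did not pass edgeR's quasi-likelihood test (adjusted p = 0.409).

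Cdkn2a and Cdkn2b, the neighbouring genes of p16 and p15, were below the filter. Cdkn2a had 0 exon reads in all 8 libraries, which allows up to 0.111 CPM at P5 and 0.119 CPM at 4 weeks if 3 counts over the 4 libraries of an age are taken as the limit of a count of 0, for counting error only. Cdkn2b had 1 exon read, in P5 replicate 3. The introns of Cdkn2a held 5 reads at P5 and 10 at 4 weeks, and those of Cdkn2b held 3 and 5. The tables give p16 and p19Arf no rows of their own, so the 0 covers the exons of both.

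Set against each other per length of exon, Cdkn1b, Cdkn1c and Cdkn2d had the highest means at both ages, in that order. Cdkn1b was at 23.4 ± 2.47 CPM per kb at P5 and 31.8 ± 3.29 at 4 weeks (SD, n = 4), Cdkn1c at 20.8 ± 2.47 and 15.5 ± 3.10, and Cdkn2d at 12.2 ± 2.02 and 10.5 ± 1.04. At P5 the ranges of Cdkn1b and Cdkn1c overlapped, from 20.3 to 26.3 and from 17.7 to 23.5 CPM per kb, whereas at 4 weeks those of Cdkn1c and Cdkn2d were close, without overlap, from 12.2 to 18.8 and from 9.48 to 11.5. Cdkn1a and Cdkn2c changed places: Cdkn1a was at 4.44 ± 0.740 and 1.52 ± 0.608 CPM per kb and Cdkn2c at 0.508 ± 0.336 and 2.96 ± 1.47. Their ranges did not overlap at P5 and did overlap at 4 weeks. Because only 25.3% of Cdkn1a reads were unique, its level per kb in unique exon reads was lower, at 1.40 at P5 and 0.374 at 4 weeks.

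Among the 12235 tested genes, Cdkn1b had a higher level per kb than 74.0% at P5 and 82.8% at 4 weeks. Cdkn1c was above 70.1% and 59.4%, and Cdkn2d above 51.3% and 45.3%. Cdkn1a was above 24.2% and 10.9%, and Cdkn2c above 2.71% and 17.8%.

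The summed level of the 7 genes overlapped between the 2 ages. It was 61.4 ± 3.53 CPM per kb at P5 (57.4 to 66.0) and 62.2 ± 2.55 at 4 weeks (59.7 to 64.8; SD, n = 4). The CIP/KIP genes made up 48.6 ± 4.89 CPM per kb at P5 and 48.8 ± 0.321 at 4 weeks, and the INK4 genes 12.7 ± 1.92 and 13.4 ± 2.44. Within the sum, Cdkn1b held 38.1% ± 2.03 at P5 and 51.2% ± 5.66 at 4 weeks, and Cdkn1c 33.8% ± 2.27 and 24.9% ± 5.19. Cdkn1a held 7.27% ± 1.30 and 2.42% ± 0.884, and Cdkn2c 0.818% ± 0.520 and 4.69% ± 2.15. These shares are a description of the same reads, with no test of their own.

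**Figure D2:**
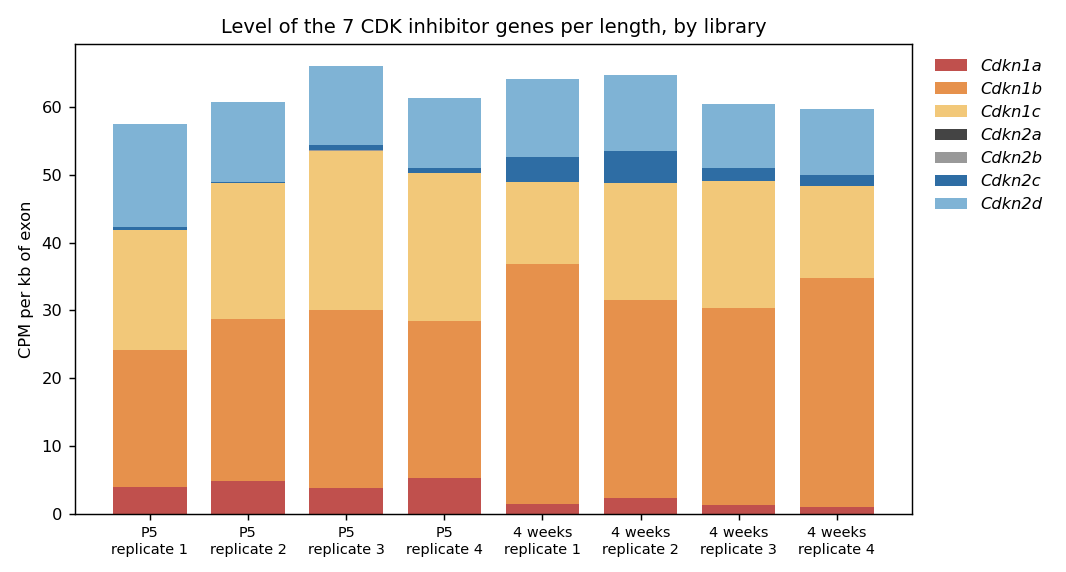
Stacked level of the 7 genes in CPM per kb of exon (y axis, from 0) in each of the 8 libraries (x axis). The height of the stack is between 57.4 and 66.0 in all libraries, and the Cdkn1b segment is larger and the Cdkn1a segment smaller at 4 weeks.

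Reads in introns can come from transcripts not yet spliced and give another readout of the same genes. Every library held more intron than exon reads, 11264425 to 15661059 against 5775130 to 7470777. For Cdkn1a they numbered 846 at P5 and 294 at 4 weeks. In CPM of intron reads Cdkn1a was at 16.1, 12.0, 17.3 and 19.8 at P5 and 2.23, 10.5, 4.97 and 4.60 at 4 weeks. The ages did not overlap, with 4-week replicate 2 the closest to P5. The log2 fold change was 1.55 with a standard error of 0.369 and an adjusted p = 0.0135 by edgeR's quasi-likelihood test, but only 17.5% of the intron reads of Cdkn1a were unique.

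Cdkn1b had 11.5, 14.7, 16.8 and 14.2 CPM of intron reads at P5 and 26.4, 18.5, 26.3 and 29.2 at 4 weeks. All 4-week libraries were again above those of P5. The log2 fold change of Cdkn1b in intron reads was -0.81 with a standard error of 0.181 and an adjusted p = 0.00990 by edgeR's quasi-likelihood test. Cdkn2d, at 1.24 ± 0.489 and 0.622 ± 0.295 CPM (SD, n = 4), had a log2 fold change of 0.97 that did not pass (adjusted p = 0.184, edgeR's quasi-likelihood test). In intron reads Cdkn2d passed the filter through the P5 libraries. Of the 3 members that passed the filter in introns, 1 was higher and 1 lower, beside 9.01% and 8.86% of the 13180 genes tested, and 22.9% of those genes did not overlap, or 17.9% were called in either direction. Both calls were lost with Y-linked reads as a covariate (adjusted p = 0.0548 for Cdkn1a and 0.0582 for Cdkn1b) and among the libraries with such reads (0.0759 and 0.0506).

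The age differences in exon and intron reads were compared with an interaction term, with the library as a block. For Cdkn1a the exon effect minus the intron effect was -0.07 with a standard error of 0.381 (adjusted p = 0.936, edgeR's quasi-likelihood test), a sign that turned in some alternatives. For Cdkn1b it was 0.36 with a standard error of 0.159 and did not pass after adjustment (adjusted p = 0.189, edgeR's quasi-likelihood test). For Cdkn2d it was -0.75 with a standard error of 0.471 (adjusted p = 0.367). None of the 3 was called, and 6.4% of 11399 genes were.

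**Figure D3:**
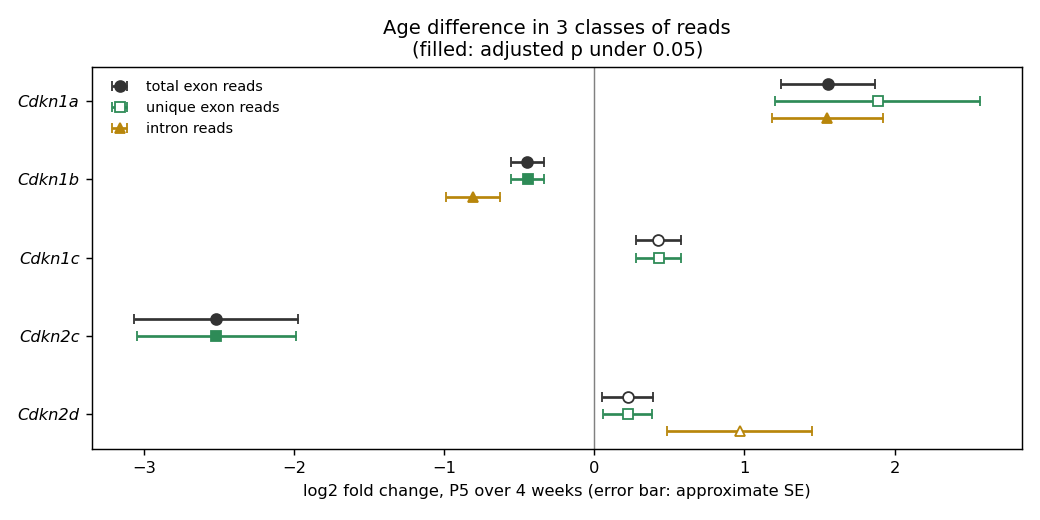
Log2 fold change, P5 over 4 weeks (x axis), with its standard error, for the genes that passed the filter in total exon reads, unique exon reads and intron reads (filled where the adjusted p was under 0.05). Cdkn1a lies between 1.55 and 1.89 in the 3 classes, and Cdkn1b moves from -0.44 in exon reads to -0.81 in intron reads.

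The members differed widely in how many reads fell in introns. Over the 8 libraries, introns held 78.1% of the reads of Cdkn1a, 38.0% of Cdkn1b, 34.2% of Cdkn2c, 10.3% of Cdkn2d and 1.30% of Cdkn1c. The median share over 11667 genes was 56.1%. Per kb, Cdkn1a had 157.9 exon and 147.8 intron reads, a ratio of 1.07, and only 2.89% of 11667 genes had a lower ratio. The median ratio over those genes was 4.82, with quartiles of 3.04 and 7.74. Cdkn1b was at 1.85 (8.71% of genes lower), Cdkn2c at 3.10 and Cdkn2d at 8.88. Cdkn1c was at the other end, with a ratio of 27.8 and 97.2% of genes lower. For Cdkn1a the ratio ranged from 0.774 to 1.54 over the P5 libraries and from 0.730 to 2.21 over the 4-week libraries, so the ages overlapped. For Cdkn1b it was 1.97 to 3.32 at P5 and 1.43 to 2.01 at 4 weeks, with an overlap between P5 replicate 3 and 4-week replicate 2.

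Reads that cross an exon junction come from spliced RNA. There were 19 for 320 exon reads of Cdkn1a, 41 for 3460 of Cdkn1b, 249 for 1892 of Cdkn1c, 22 for 196 of Cdkn2c and 44 for 868 of Cdkn2d. The corresponding rates were 5.94, 1.18, 13.2, 11.2 and 5.07 per 100 exon reads, all below the median of 19.6 over the same 11667 genes. The libraries do not keep the strand, so reads from antisense or overlapping genes cannot be told apart. GENCODE lists the antisense gene Gm44732 within Cdkn1c and an unnamed model on the minus strand within Cdkn1a at chr17:29093416-29094461, and RefSeq lists the lncRNA Gm12610 across Cdkn2b.

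**Figure D4:**
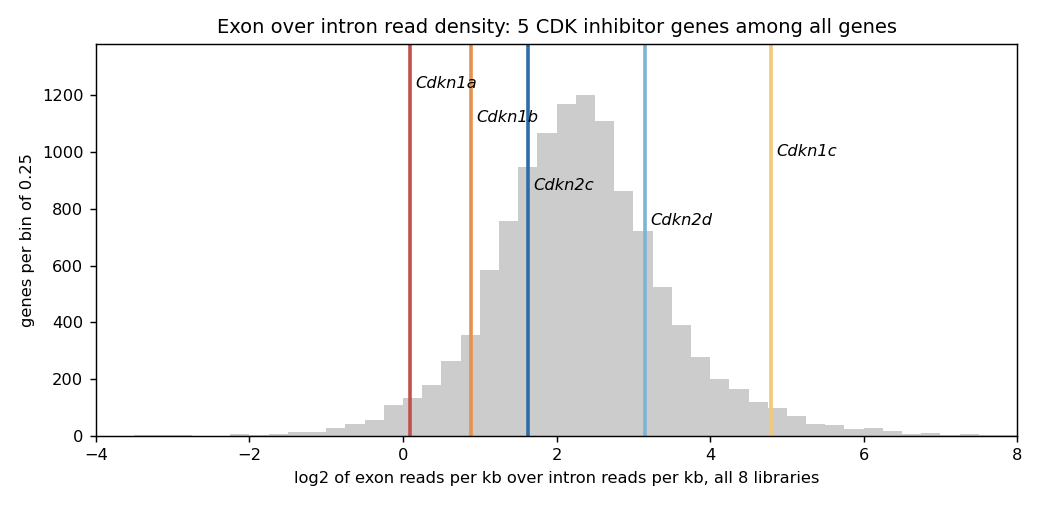
Histogram of the log2 ratio of exon to intron reads per kb (x axis) over 11667 genes (y axis, genes per bin), with 5 CDK inhibitor genes as lines. Cdkn1a and Cdkn1b lie in the low tail, with 2.89% and 8.71% of genes below them, and Cdkn1c lies in the high tail.

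In the authors' deposited table, Cdkn1a on its main contig was 3.17-fold higher at P5 with a corrected p of 2.00647E-06, and Cdkn2c was 5.72-fold higher at 4 weeks with a corrected p of 3.00219E-05. The authors' deposited table gave Cdkn1b as 1.36-fold higher at 4 weeks (corrected p of 0.0353) and Cdkn1c as 1.35-fold higher at P5 (corrected p of 0.231). The authors' deposited table had Cdkn2d higher at P5 by 1.17-fold with a corrected p of 1. For the few reads of Cdkn1a on the other contig, the authors' deposited table gave the opposite direction, 1.99-fold higher at 4 weeks with a corrected p of 1.

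The targets of these inhibitors are the cyclins and CDKs of G1 and S phase. Of 9 such genes, all tested, 1 was higher and 1 lower at P5, with a median log2 fold change of 0.19 against -0.0042 over all genes tested. Of those 12235 genes, 7.99% were higher and 8.55% lower. Ccnd1, a D-type cyclin that INK4 proteins compete with, was 2.13-fold higher at P5, at 83.9 ± 19.99 against 39.5 ± 5.33 CPM (SD, n = 4, adjusted p = 0.000355 by edgeR's quasi-likelihood test). Cdk6, a direct target of INK4 proteins, was 1.43-fold lower, at 374 ± 37.2 against 534 ± 59.1 CPM (adjusted p = 0.00237). None of 13 pocket protein and E2F genes was called by edgeR, DESeq2 or limma-voom, and 2 had an unadjusted p under 0.05 in edgeR. Those were E2f5, with a log2 fold change of 0.47 (edgeR's quasi-likelihood test, adjusted p = 0.119), and Rbl2, encoding p130, with -0.22 (adjusted p = 0.128). Without P5 replicate 2 Rbl2 was called lower (-0.29, adjusted p = 0.0482), without 4-week replicate 2 the list had 1 gene called higher, and with exon plus intron reads Rbl2 turned to 0.14.

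Of 25 genes of p53 and its targets, 22 were tested, with a median log2 fold change of 0.18. Of the 22, 3 were higher and 2 lower, beside 7.99% and 8.55% of all genes tested. Plk2, a polo-like kinase, was 3.16-fold higher at P5, at 38.4 ± 5.40 against 12.1 ± 3.03 CPM (SD, n = 4). Zmat3, an RNA-binding protein, was 1.99-fold higher and Sesn1, a stress-response sestrin, 1.84-fold higher. Ccng1 (cyclin G1) was 1.24-fold lower and Sesn2 1.58-fold lower. With Y-linked reads as a covariate Ccng1 (adjusted p = 0.0853) and Sesn2 (adjusted p = 0.277) were lost in edgeR's quasi-likelihood test. Leaving out single libraries lost Ccng1 without P5 replicate 3 or 4 or 4-week replicate 1, 3 or 4, and Sesn2 without P5 replicate 1, 2 or 3 or 4-week replicate 1, 3 or 4. The noncoding gene Trp53cor1, upstream of Cdkn1a and looked up after its values were seen, had 179 to 354 reads at P5 and 204 to 469 at 4 weeks, with overlap and no test.

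Other transcriptional regulators of CIP/KIP genes counted 19, of which 18 were tested, with a median log2 fold change of 0.12. Of the 18, 7 were higher and 1 lower, beside 7.99% and 8.55% of all genes tested. Tgfbr2, a receptor of TGF-beta, a signal known to raise CIP/KIP genes in HSCs, was 1.62-fold higher at P5, at 168.0 ± 12.2 against 103.9 ± 10.2 CPM (SD, n = 4, adjusted p = 0.000156 by edgeR's quasi-likelihood test). Myc, which represses Cdkn1a and Cdkn1b, was 1.56-fold lower, at 89.3 ± 20.4 against 139.5 ± 17.9 CPM (adjusted p = 0.00804). The count of 7 fell to 3, 4 and 2 without P5 replicate 1, 3 or 4 and to 2, 3 and 1 without 4-week replicate 1, 3 or 4. It was 2 with Y-linked reads as a covariate. Among the libraries with Y-linked reads Myc missed the threshold (adjusted p = 0.0605).

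Of 12 subunits of ubiquitin ligases that target CIP/KIP proteins, 3 were higher at P5 and none was lower, with a median log2 fold change of 0.17. The shares of all genes tested were 7.99% higher and 8.55% lower. Ddb1, Cul4a and Cul4b, parts of the CRL4 ligase that targets p21, were 1.20-fold, 1.16-fold and 1.26-fold higher. Skp2, the subunit that recognises p27, was at a log2 value of 0.13, P5 over 4 weeks (edgeR's quasi-likelihood test, adjusted p = 0.628), and was chosen after its value was seen. All 3 calls were lost with Y-linked reads as a covariate (adjusted p = 0.261 for Ddb1, 0.241 for Cul4a and 0.261 for Cul4b). They were also lost without P5 replicate 1, 3 or 4 or without 4-week replicate 1, 3 or 4, and Cul4a without 4-week replicate 2. Counted with exon plus intron reads, Cul4a turned to a log2 fold change of -0.072.

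Regulators of the Cdkn2a locus, mainly Polycomb genes, counted 22, of which 20 were tested. Of these, 6 were higher at P5 and none was lower, beside 7.99% and 8.55% of all genes tested. The median log2 fold change of the list was 0.18. Cdkn2a itself had no exon read at either age, and its link to these genes was not tested. Hmga2, a chromatin protein known for repressing the locus in young stem cells, was 5.21-fold higher at P5, at 367 ± 54.2 against 70.4 ± 8.85 CPM (SD, n = 4, adjusted p = 4.99e-08 by edgeR's quasi-likelihood test). Ets1, known as an activator of p16, was 1.65-fold higher, at 68.4 ± 7.66 against 41.3 ± 2.76 CPM. The count of 6 fell to 3 without P5 replicate 3 or 4 and without 4-week replicate 1 or 4, and was 4 with Y-linked reads as a covariate. With exon plus intron reads Hmga2 was 2.80-fold higher, and Ets1 missed the threshold (adjusted p = 0.280).

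The imprinted domain around Cdkn1c was represented by 9 tested genes, 2 of them lower at P5 and none higher, with a median log2 fold change of -0.0015. Over all genes tested, 8.55% were lower and 7.99% higher. Osbpl5 was 2.04-fold lower, at 9.16 ± 0.671 against 18.7 ± 1.59 CPM (SD, n = 4), and Ascl2 1.70-fold lower, at 8.19 ± 2.19 against 13.9 ± 2.59 CPM. Cdkn1c, with a log2 fold change of 0.43, had the opposite sign. Ascl2 was lost with Y-linked reads as a covariate (adjusted p = 0.303 by edgeR's quasi-likelihood test). It was also lost without P5 replicate 1 or 3 or 4-week replicate 1, 2 or 3.

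Of 36 proliferation genes tested, 33 had a positive log2 fold change and the median was 0.29, but 1 was called, Cenpa, a centromere histone, 2.14-fold higher at P5. Among all genes tested, 7.99% were higher and 8.55% lower. Cdk1, the kinase of mitosis, was at a log2 value of 0.65, P5 over 4 weeks (edgeR's quasi-likelihood test, adjusted p = 0.0698). The summed level was 5192, 2857, 4595 and 4604 CPM in P5 replicates 1 to 4 and 3588, 5045, 3132 and 3203 CPM in the 4-week replicates. The ages overlapped fully, with P5 replicate 2 lowest of all and 4-week replicate 2 near the top. Without P5 replicate 2, 10 genes of the list were called higher, and without 4-week replicate 2, 4 were. Cenpa was lost with Y-linked reads as a covariate (adjusted p = 0.0705).

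**Figure D5:**
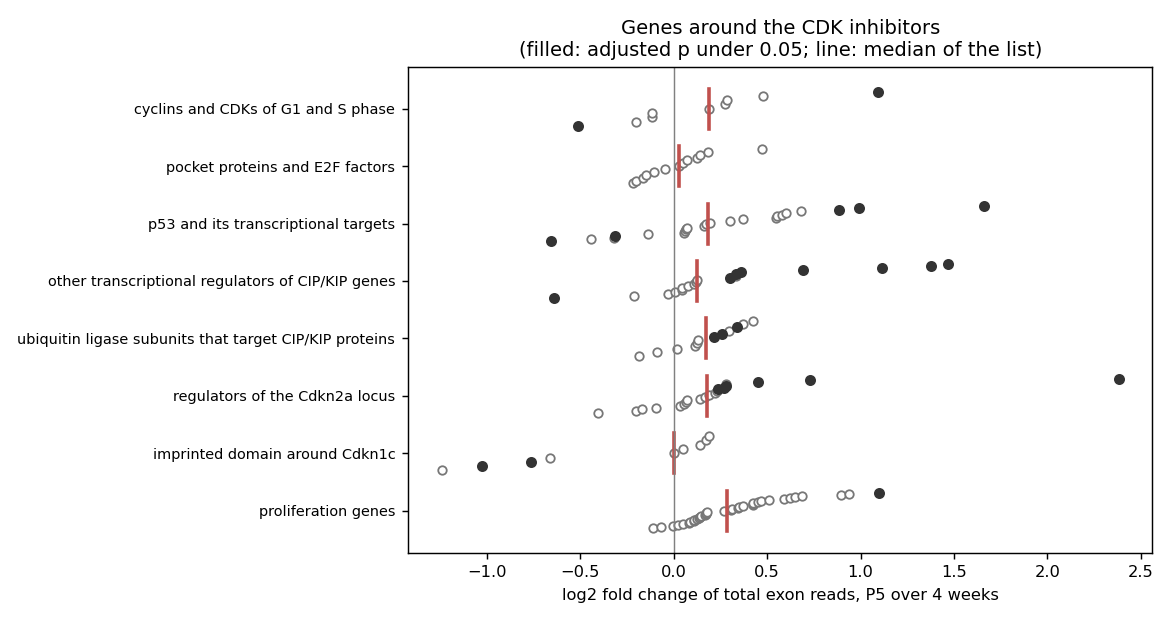
Log2 fold change of total exon reads, P5 over 4 weeks (x axis), of the tested genes of 8 lists around the CDK inhibitors, filled where the adjusted p was under 0.05, with the median of each list as a line. Medians lie between -0.0015 and 0.29, and the called genes of the p53 list stand on both sides of 0.

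The nearest neighbours that passed the filter were Srsf3 (by Cdkn1a), Gpr19 (by Cdkn1b), Kcnq1 and Slc22a18 (by Cdkn1c), Mtap (by Cdkn2a), Faf1 (by Cdkn2c) and Kri1 (by Cdkn2d). None of these 7 was called, beside 16.5% of all genes tested, with log2 fold changes from -0.66 for Kcnq1 to 0.14 for Slc22a18. The neighbours Rab44, Apold1, Dmrta1, 4930522H14Rik and Ap1m2 were below the filter.

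The genes whose log2 CPM followed each member most closely over the 8 libraries were found by Pearson's r, among 8579 genes (8578 where the member is itself one of them) with a mean log2 CPM of at least 4. These values describe points that share the 2 ages. Cdkn1a was most like Lsr (r of 0.986) and Vegfa (0.983), and Cdkn1b most like Mmaa (0.985) and Apobec3 (0.980). Cdkn1c was most like Pea15a (0.960) and Plek (0.942). Cdkn2c was most like Wee1 (0.977), which encodes a kinase that inhibits CDK1, and Plekha1 (0.976), and Cdkn2d most like Unc119 (0.945) and Mrps28 (0.944). Among the members, Cdkn1a and Cdkn1b ran opposite (r of -0.86 over 8 libraries), and Cdkn1c and Cdkn2d were nearly unrelated (0.078).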

How the data were processed

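RNA of sorted HSCs was made into Nextera XT libraries, per the labels' protocols, with mm10 as the build in the submitters' processing notes. Which aligner, counter or annotation was used is not given in the sources. The deposited tables hold, per the file headers, read counts per gene (total and unique exon reads, exon-exon reads, intron reads). One file also holds the authors' fold changes, a deposited ratio, and p-values. Rows with an mRNA model (23457 of 48835) were used, and copies of 969 genes on several contigs were summed to 22050 genes. 24 names turned into dates were restored.

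The test was edgeR 4.0.16 under R 4.3.3 on the counts (filterByExpr, TMM scaling, quasi-likelihood fits, age alone as the model), with Benjamini-Hochberg adjustment over the 12235 genes kept, a threshold of 0.05 and CPM from TMM-scaled library sizes. Standard errors are approximate, from the log2 fold change and F. Unique exon reads and intron reads were fitted apart in the same way. Levels between genes were compared per kb of exon. limma 3.58.1 and DESeq2 1.42.0 served as alternatives. The script was tested on simulated data with 200 changed genes. Tables and figures used Python 3.11.15, pandas 2.3.3, numpy 2.4.6, scipy 1.17.1 and matplotlib 3.10.9.

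The members, gene lists and tests were chosen with earlier results of these data known. Named were all members, the 2 genes with the smallest p-value in each pathway list, every called gene of pathway lists with at most 5 called, the 2 genes most like each member, and nearest neighbours. The rule also took the most abundant and the most significant marker of each list of markers, printed where a value bears on the members or changed sign between settings. In the lists, Tigar was matched through an older name. Kcnq1ot1 was not analysed here. No library pair within an age agreed within sampling noise.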

Additional observations from a re-analysis of the deposited data

Results flagged for a closer look

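Of 27 sets of 4 libraries of an age in which a member had reads in every library, 1 had a library far from the others, and chance flags about 1 in 20. The intron reads of Cdkn1c in 4-week replicate 4 were at 0.315 CPM, with the nearest of the others at 0.166 and the lowest at 0.144, so that the gap was 0.872 of the whole range. Cdkn1c had 25 intron reads in all 8 libraries, and this value enters no test.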

How the results depend on the processing

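In total exon reads Cdkn1a kept its call under all 18 alternatives run (log2 fold change 1.38 to 1.87), and Cdkn2d stayed uncalled in all 18. In unique exon reads Cdkn1a was not called in the main fit, but it was without 4-week replicate 2 and by limma-voom. Few reads limit Cdkn1a and Cdkn2c, and Cdkn2c could not be tested at a minimum of 5 CPM in at least 4 libraries, which left 1 member lower in total and in unique exon reads. The cause of the changes below was not tested unless fewer samples or genes give it.

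The replicate numbers showed no sign of pairing the samples: deviations of same-numbered libraries correlated at -0.031, -0.236, -0.095 and -0.052. With 4 libraries of an age, such values cannot exclude pairing. The column headers number the 4-week libraries in another order than the titles used here, and a block in that order was not fitted. With the replicate block Cdkn1b was at -0.444 (adjusted p = 0.0656 by edgeR) and Cdkn2c at -2.46 (adjusted p = 0.0507), which left 0 members lower in total and 1 in unique exon reads. The block gave 577 genes higher, 540 in unique exon reads, and 9 pathway genes higher and 3 lower, against 977, 890, 21 and 6.

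With Y-linked reads as a covariate Cdkn1b was at -0.436, leaving 1 member lower in total and unique exon reads and 0 called in intron reads. Genes higher and lower numbered 628 and 608 in total exon reads and 674 and 607 in intron reads, with 558 lower in unique exon reads, and pathway genes 10 and 3. With the libraries that have Y-linked reads alone, Cdkn1b was at -0.436, with 1 member lower in total and unique exon reads and 0 in intron reads. The numbers were then 619 and 638, 699 and 618, 550, and 11 and 2. Main values were 1046 lower in total, 959 lower in unique and 1188 and 1168 in intron reads. Uty turned to 0.158 in both settings.

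In unique exon reads DESeq2 called 1 member higher, Cdkn1c, and limma-voom called 1 other, Cdkn1a, against 0. With exon plus intron reads Rbl2 turned to 0.137, Cul4a to -0.0722, Hlf to -0.184 and Prtn3 to -0.0732. Unique reads of both classes put the difference of exon and intron effects of Cdkn1a at 0.826. In unique exon reads, levels per kb at P5 and 4 weeks were 1.40 and 0.374 for Cdkn1a, 27.5 and 37.4 for Cdkn1b and 14.4 and 12.3 for Cdkn2d, and 24.4 for Cdkn1c at P5.

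Leaving out 1 library at a time gave log2 fold changes of -0.504 to -0.381 for Cdkn1b, 0.328 to 0.533 for Cdkn1c and -2.79 to -2.17 for Cdkn2c, and -0.150 to 0.0986 for Prtn3. It gave 1 to 2 members higher and 1 to 2 lower in total exon reads, and 0 to 1 and 1 to 2 in unique exon reads. Pathway genes numbered 9 to 27 higher and 3 to 6 lower. The lowest values were 9 without 4-week replicate 4 and 10 without P5 replicate 4. The difference of exon and intron effects of Cdkn1a was -0.254 to 0.238, turning without P5 replicate 3 or 4-week replicate 1, and 381 to 660 genes were called for it, against 729; without 4-week replicates 1, 3 and 4 they were 399, 441 and 381.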
